A study of Mus musculus with 46 samples.

Results

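Short-chain fatty acid sensing and use was followed through 10 genes in RNA-seq read counts of microglia, the macrophages that reside in the mouse brain. The genes were chosen by function. Hcar2, Ffar2 and Ffar3 encode receptors, Slc16a1 and Slc16a3 encode transporters, and Acss1, Acss2, Acly, Acads and Acat1 encode enzymes that make or use acetyl-CoA, butyryl-CoA or acetoacetyl-CoA. They are 10 of the 54134 genes in the count table. The 46 libraries came from 5xFAD mice (labelled AD, 24 libraries) and WT mice (22 libraries) of both sexes on 1 of 3 diets. HAMSAB is a resistant high-amylose maize starch that carries acetate and butyrate, zero fiber is a diet without fiber, and the third diet is the control. AD and WT mice on HAMSAB, AD mice on zero fiber and AD and WT mice on control gave 8 libraries each, and WT mice on zero fiber gave 6. 5xFAD mice carry mutant human transgenes under the neuronal Thy1 promoter, so they are not driven in the microglia themselves. The sources used here give no age, no time on the diet and no method of microglia isolation. Whether different libraries stand for different mice is not stated, and the p-values therefore refer to the spread from library to library.

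Gut bacteria ferment fiber into acetate, propionate and butyrate, which can reach other tissues through the blood. Cells sense them through the G protein-coupled receptors FFAR2 and FFAR3, and butyrate and the ketone body beta-hydroxybutyrate through HCAR2. They take them up with a proton through monocarboxylate transporters, activate them to acyl-CoA, and burn them in mitochondria or use the acetyl-CoA for lipid synthesis and histone acetylation. HCAR2 is known in microglia as the receptor through which niacin acts on these cells.

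Total counts ran from 1174514 to 6950429 in 44 libraries, with 783849 and 52114 in the remaining 2 and a median of 2344837.5 over all 46. Levels are CPM, the reads of a gene scaled to a common library size with TMM factors, or CPM per kb of exon where genes are compared with each other. The library of 52114 counts is zero_fiber_AD_M replicate 2, in which 3 reads equal 46.4 CPM. The library labelled zero_fiber_AD_F replicate 1 held 1 read of Xist and 666 of the Y-linked Ddx3y, a male pattern. These 2 libraries are doubted. Fold changes of the 7 tested members that rest on AD mice on zero fiber were also computed without them. For Hcar2 this was done for HAMSAB against zero fiber only, and marker levels and calls keep both libraries. Another library of AD mice on zero fiber, zero_fiber_AD_F replicate 2, held 2213 reads of Xist and 47 of Ddx3y. It was kept in the fits without the 2 doubted libraries. All 10 microglial marker genes were detected, among them P2ry12 (607368 reads), and their summed level was 25000 to 41100 CPM. Among neutrophil markers Ly6g had 0 reads and Retnlg 2 in all libraries together, while Cxcr2 had 296, S100a8 102 and Ngp 93. The list of 9 summed to 0 to 22.4 CPM. Among 6 endothelial markers Cldn5 had 3 reads and Pecam1 6950, and the list summed to a median of 75.2 CPM, beside 256 CPM for 6 astrocyte markers and 112 CPM for 5 oligodendrocyte markers. In bulk samples, fewer cells of a type and less RNA per cell cannot be told apart.

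The receptors Ffar2 and Ffar3 were at or near 0. Ffar2 (chr7:30818348-30823775, minus strand, GRCm38) had 0 reads among 116142555 counts in the 46 libraries, which allows a level of up to 0.0258 CPM over the pooled libraries (3 counts, counting error only). Ffar3 (chr7:30854330-30856178, minus strand) had 1 read, in HAMSAB_AD_F replicate 1, where it equals 0.436 CPM. Ffar3 had no read in the other 45 libraries. The promoter windows of these genes and of 2 members detected in every library, Slc16a1 and Acss1, are shown to set undetected beside detected members. Slc16a1 had the smallest p of the members and Acss1 the highest level, and both were chosen after their values were seen. The sequences are RefSeq promoter windows of GRCm38.p6, 5′ to 3′ on the gene's strand, with each CpG dinucleotide (CG) in capitals. They run from 250 bases before to 50 after the RefSeq gene start. That start can differ from the gene coordinates given in the text, which come from GENCODE. The Acss1 window lies wholly inside the GENCODE coordinates of Acss1.
Ffar2, chr7:30823726-30824025, minus strand: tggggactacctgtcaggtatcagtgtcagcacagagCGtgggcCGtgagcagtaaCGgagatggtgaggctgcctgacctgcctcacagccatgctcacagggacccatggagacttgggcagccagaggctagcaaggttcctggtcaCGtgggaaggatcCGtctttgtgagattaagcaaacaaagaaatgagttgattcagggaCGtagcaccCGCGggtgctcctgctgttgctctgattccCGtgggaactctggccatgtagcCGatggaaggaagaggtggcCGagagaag
Ffar3, chr7:30856129-30856428, minus strand: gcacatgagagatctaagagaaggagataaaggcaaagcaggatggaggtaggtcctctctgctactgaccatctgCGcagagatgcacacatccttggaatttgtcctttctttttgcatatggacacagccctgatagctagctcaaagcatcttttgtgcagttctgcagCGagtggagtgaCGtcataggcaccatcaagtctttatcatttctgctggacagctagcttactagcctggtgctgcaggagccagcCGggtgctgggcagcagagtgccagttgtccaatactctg
Slc16a1, chr3:104638414-104638713, plus strand: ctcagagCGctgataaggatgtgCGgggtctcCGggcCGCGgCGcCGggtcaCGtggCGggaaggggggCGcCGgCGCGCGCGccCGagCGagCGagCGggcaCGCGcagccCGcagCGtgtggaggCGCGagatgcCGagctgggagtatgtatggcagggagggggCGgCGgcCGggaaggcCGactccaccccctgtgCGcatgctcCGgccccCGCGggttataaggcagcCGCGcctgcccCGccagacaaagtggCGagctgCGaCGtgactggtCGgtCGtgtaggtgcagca
Acss1, chr2:150668191-150668490, minus strand: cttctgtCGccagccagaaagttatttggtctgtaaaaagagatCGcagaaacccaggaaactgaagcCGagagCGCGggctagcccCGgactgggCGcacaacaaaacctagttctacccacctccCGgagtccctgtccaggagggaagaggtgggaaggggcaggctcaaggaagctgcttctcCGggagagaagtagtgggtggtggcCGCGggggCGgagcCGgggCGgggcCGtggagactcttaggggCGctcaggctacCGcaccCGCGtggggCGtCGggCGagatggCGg
The Ffar2 window holds 11 CpGs and its 3 alternative windows hold 3 each, and the Ffar3 window holds 4. The Slc16a1 window holds 42 and the Acss1 window 23, and those of the detected members not printed hold 36 (Slc16a3), 20 (Acss2), 18 (Acly) and 17 (Acads). At least as many CpGs as in each of these windows were found in 41.9% of the 27025 genes with a window for Ffar2, 68.1% for Ffar3, 2.93% for Slc16a1 and 21.6% for Acss1. A CpG reads as CG on either strand, and 94.2% of all windows hold at least 1. The median was 21 CpGs among the 8533 tested genes with a window, and 4 among the 18492 genes that were not tested. The counts describe the letters of these windows and carry no measure of methylation or of a factor's binding.

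Hcar2 (chr5:123863570-123865499, minus strand) was detected at a low level, with 201 reads in all and at least 1 read in 44 of 46 libraries. Its level was 0 CPM at the lowest, 1.62 CPM at the median and 3.76 CPM at the highest, and the mean per length was 0.869 CPM per kb. It did not pass the filter on low counts, which asked for about 4.26 CPM in at least 2 libraries. Of the 3 receptors, Hcar2 alone was seen in more than 1 library.

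Both transporters were detected in all 46 libraries. Slc16a1 (chr3:104638668-104658462, plus strand) encodes MCT1, which moves lactate, acetate, butyrate and ketone bodies, and had 2763 reads and 5.33 CPM per kb on average. Slc16a3 (chr11:120948480-120960868, plus strand) encodes MCT4, known chiefly as a lactate exporter of glycolytic cells, and had 4409 reads and 7.1 CPM per kb. Slc16a1 ranged from 15.4 to 36.8 CPM over all libraries and Slc16a3 from 20.96 to 50.7 CPM. The lowest Slc16a1 value is 1 read in zero_fiber_AD_M replicate 2, the library of 52114 counts.

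The enzymes split into 4 at 14.9 to 24.4 CPM per kb and Acss2 far below them. Acss1 (chr2:150618105-150668500, minus strand), the mitochondrial enzyme that activates acetate to acetyl-CoA, was the highest member at 24.4 CPM per kb (11526 reads). Acss2 (chr2:155517948-155585724, plus strand), the nuclear and cytosolic enzyme for the same reaction, stood at 0.278 CPM per kb (343 reads) and had no read in 2 libraries. The length used is the union of all annotated exons of a gene, 10163 bases for Acss2 and 4128 for Acss1. A longer union lowers the value per kb. Acads (chr5:115110299-115119346, minus strand), the short-chain acyl-CoA dehydrogenase that starts the oxidation of butyryl-CoA, had 18.9 CPM per kb. Acly (chr11:100476353-100528000, minus strand), which cleaves citrate into cytosolic acetyl-CoA, had 17.1 CPM per kb. Acat1 (chr9:53580522-53610382, minus strand), the mitochondrial thiolase that splits acetoacetyl-CoA, had 14.9 CPM per kb. Acss2 shares 9.12% of its exonic bases with genes on the opposite strand, Acss2os, Ggt7 and Gss, and Acss1 shares 2.74% with E130215H24Rik. The strand setting of the counting is not given in the sources used here, so reads in those stretches cannot be assigned to a strand. In all, 9 members had at least 1 read, 8 had at least 3, and 7 passed the filter and were tested.

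**Figure D1:**
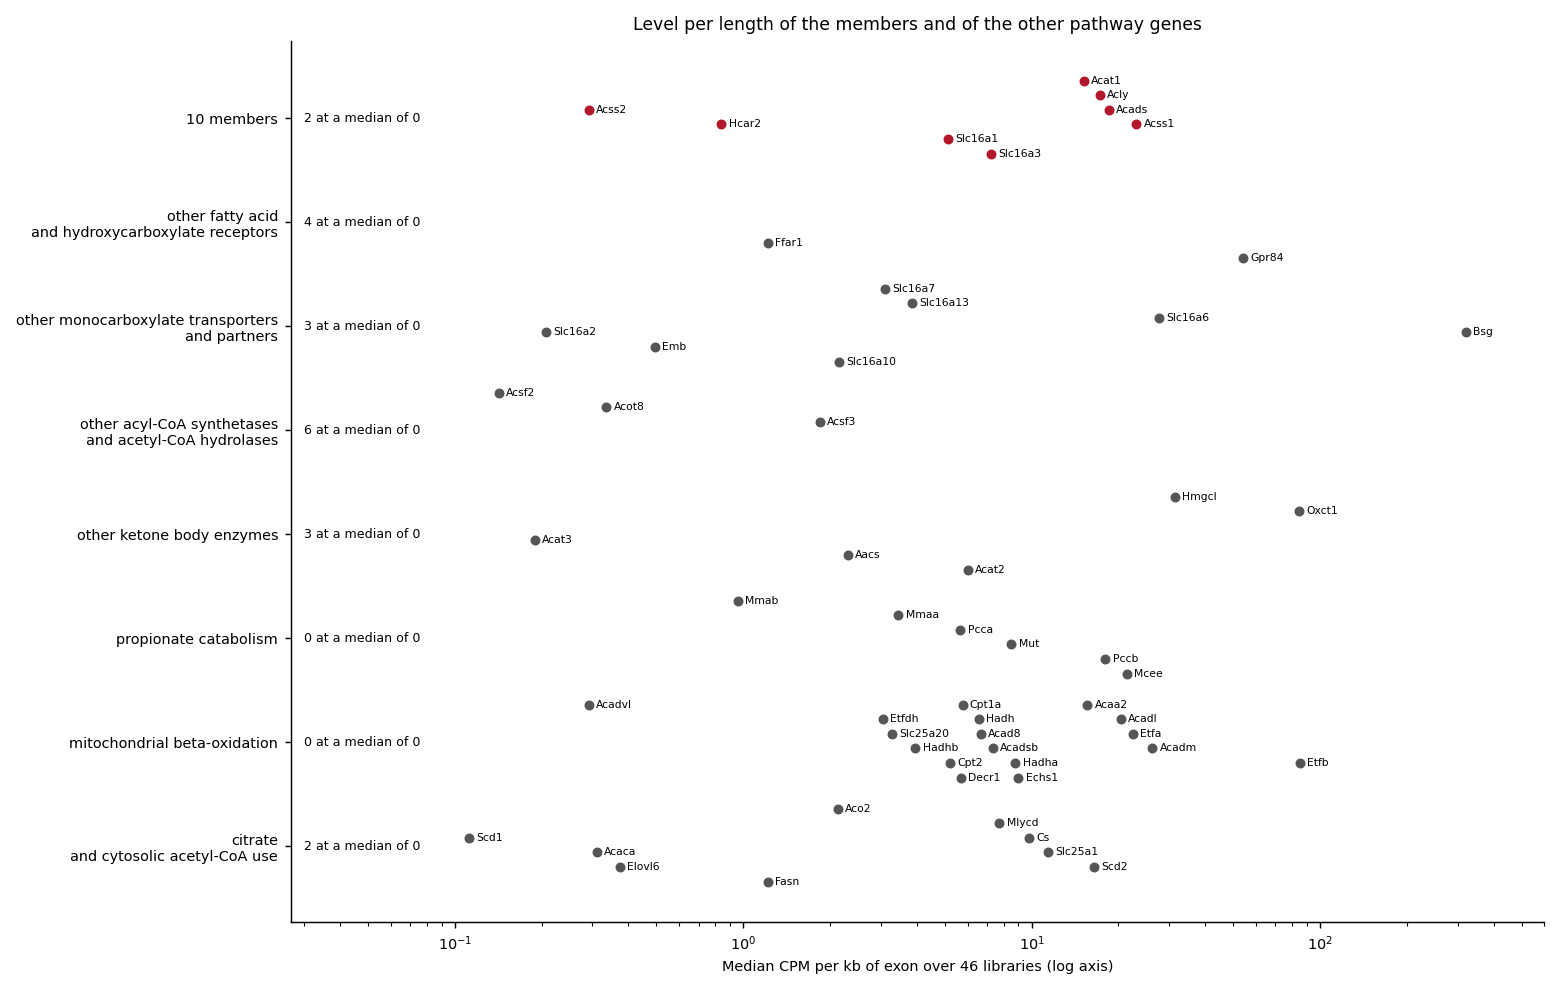
Median CPM per kb of exon over 46 libraries (log axis) for the 10 members in red and for 67 other genes of 7 related pathways in grey, 1 row per list. Ffar2 and Ffar3 are at a median of 0, Acss2 and Hcar2 lie below 1 CPM per kb, and the other members lie between 5.14 and 23.1 CPM per kb.

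Detection was uneven among related pathway genes as well. Among other receptors, Gpr84, a receptor for medium-chain fatty acids, stood at a median of 54.0 CPM per kb, above every member, while Ffar4 had 3 reads and Olfr78 1 read. Bsg, the chaperone of MCT1 and MCT4, reached 321 CPM per kb, while the sodium-coupled carriers Slc5a8 and Slc5a12 had 2 and 0 reads. Oxct1, which activates acetoacetate in mitochondria, stood at 84.8 CPM per kb. The medium-chain synthetases Acsm1, Acsm2 and Acsm5 had 0 reads. All 6 propionate catabolism genes and 16 of 17 beta-oxidation genes were tested, against 2 of 6 receptors and 1 of 9 acyl-CoA synthetases and acetyl-CoA hydrolases.

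How the members changed with diet and genotype was asked next. The test was edgeR's quasi-likelihood F test with Benjamini-Hochberg adjustment over the 12121 tested genes, and a gene was called at an adjusted p under 0.05. None of the 7 tested members was called in any of 17 comparisons. The lowest adjusted p of a member was 0.0882, for Slc16a1 on HAMSAB against zero fiber in WT mice. Fold changes below are log2 values, and levels are CPM. Each fold change is given with a standard error (SE), taken as its size divided by the square root of edgeR's F statistic.

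**Figure D2:**
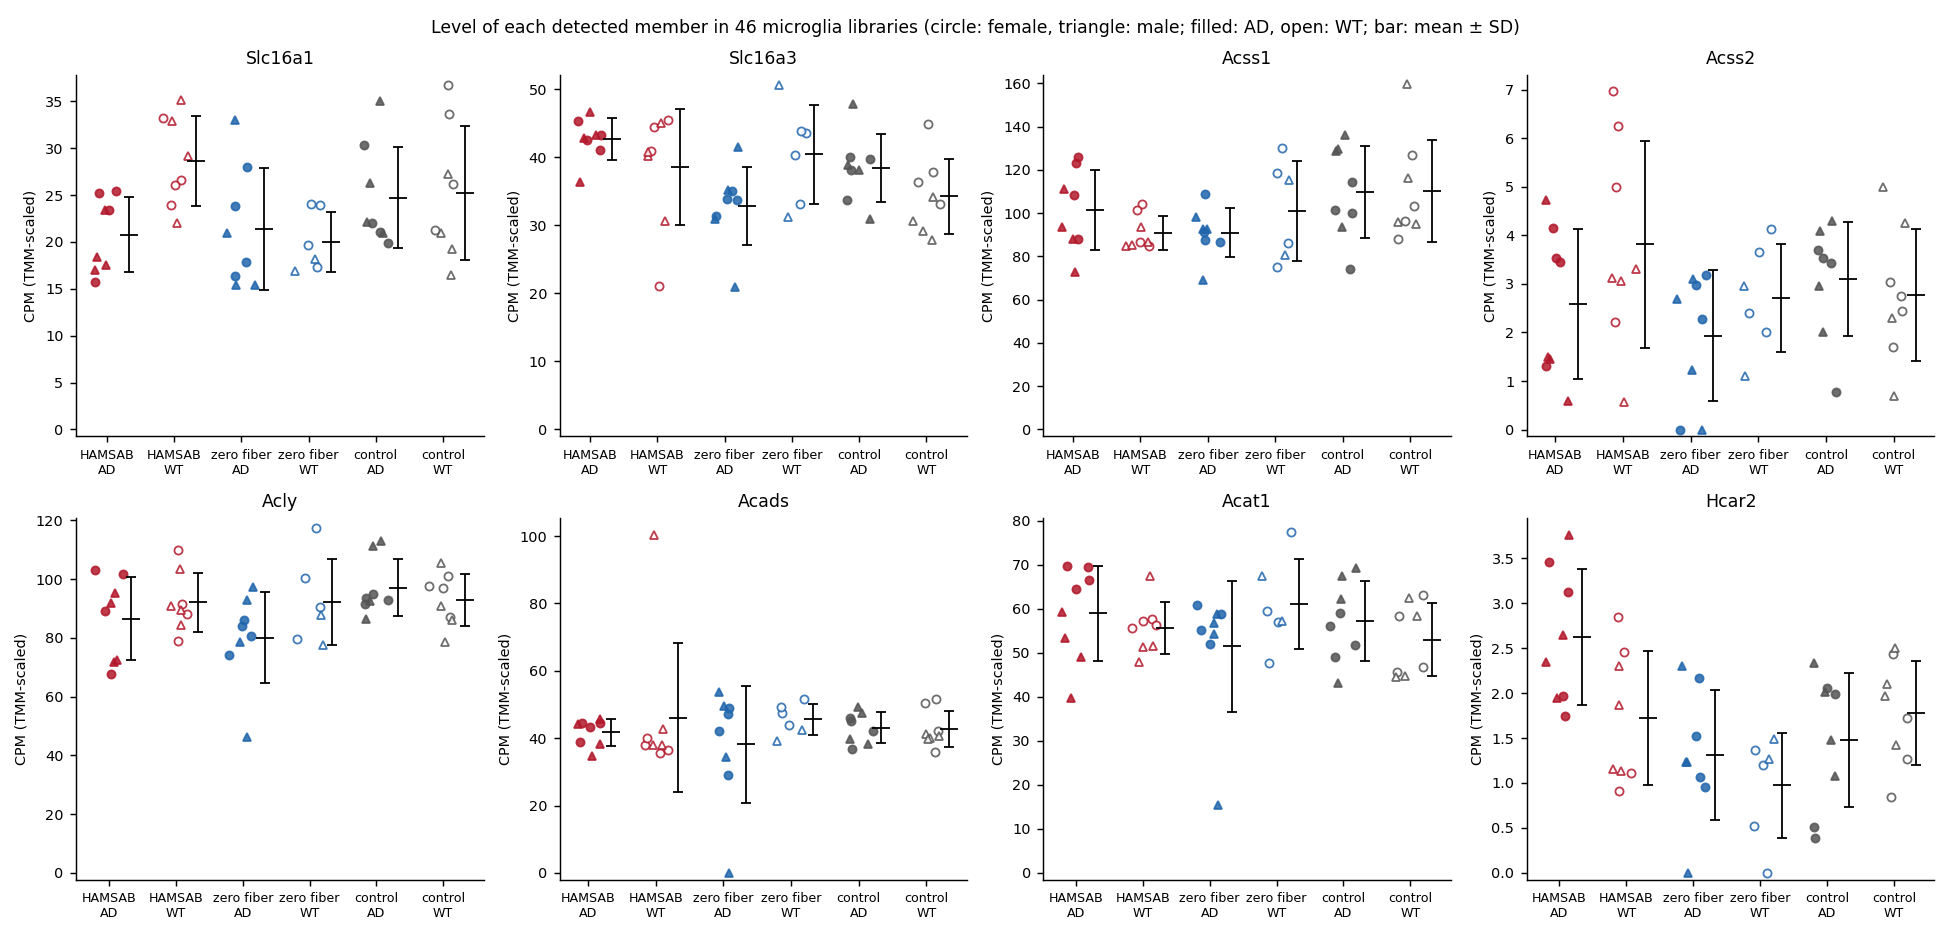
CPM of the 8 members with at least 3 reads in each of the 46 libraries (vertical axis, linear), by diet and genotype. Circles are female and triangles male libraries, filled symbols are AD and open symbols WT, and black bars are mean ± SD of 8 libraries (6 for WT on zero fiber). Slc16a1 averages 28.6 CPM in WT mice on HAMSAB and 20.01 CPM in WT mice on zero fiber with overlapping libraries.

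The median level of Hcar2 was highest in AD mice on HAMSAB and lowest in WT mice on zero fiber. Its lowest, median and highest levels were 1.75, 2.49 and 3.76 CPM in AD mice on HAMSAB, 0, 1.24 and 2.30 CPM in AD mice on zero fiber, and 0.393, 1.74 and 2.33 CPM in AD mice on control. In WT mice they were 0.910, 1.51 and 2.85 CPM on HAMSAB, 0, 1.23 and 1.49 CPM on zero fiber, and 0.846, 1.84 and 2.499 CPM on control. These levels rest on 56 reads in AD mice on HAMSAB, 25 in AD mice on zero fiber and 28 in AD mice on control, and on 37, 14 and 41 reads in WT mice on HAMSAB, zero fiber and control. Pooled over libraries, the level in AD mice was 2.66 CPM on HAMSAB (exact Poisson 95% interval 2.01 to 3.45), 1.44 CPM on zero fiber (0.929 to 2.12) and, on control, 1.40 CPM (0.929 to 2.02). In WT mice it was 1.70 CPM on HAMSAB (1.20 to 2.35), 1.02 CPM on zero fiber (0.559 to 1.72) and, on control, 1.90 CPM (1.36 to 2.57). These intervals cover counting error only, and the spread between libraries comes on top of it.

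Of the 8 AD libraries on HAMSAB, 5 lay above every AD library on zero fiber and 5 above every AD library on control, and the groups overlapped. In an edgeR fit with no filter on low counts (31448 genes), Hcar2 had a log2 fold change of 0.80 ± 0.476 (SE) on HAMSAB against zero fiber in AD mice (adjusted p = 0.848). On HAMSAB against control in AD mice it was 0.87 ± 0.449 (adjusted p = 0.570). Averaged over genotypes, HAMSAB against zero fiber gave 0.73 ± 0.367 (adjusted p = 0.606). The difference between AD and WT mice over the 3 diets was 0.24 ± 0.293. None of these Hcar2 differences passed the threshold, where 0.649%, 1.14%, 1.48% and 0.598% of the 31448 genes did. Without the 2 doubted libraries the first was 0.72 ± 0.501 (adjusted p = 0.984), and the value averaged over genotypes was 0.70 ± 0.376 (adjusted p = 0.719). The Hcar2 difference between AD and WT mice was not computed without them. Perivascular macrophage markers, a list of 7 genes all detected in each group, summed to 18.2 to 44.5 CPM in AD mice on HAMSAB (median 33.9), 31.5 to 95.2 CPM in AD mice on zero fiber (62.9) and 25.1 to 161 CPM in AD mice on control (66.6). Their part in the Hcar2 levels was not tested.

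Slc16a1 had the smallest p-values of the set. Its lowest, median and highest levels in AD mice were 15.7, 20.9 and 25.5 CPM on HAMSAB, 15.4, 19.4 and 33.01 CPM on zero fiber, and 19.9, 22.05 and 35 CPM on control. In WT mice they were 22.03, 27.9 and 35.2 CPM on HAMSAB, 16.9, 18.9 and 24.05 CPM on zero fiber, and 16.5, 23.8 and 36.8 CPM on control. The 15.4 CPM in AD mice is 1 read in the library of 52114 counts. Of the 8 WT libraries on HAMSAB, 6 lay above every WT library on zero fiber, and 4 of the 6 on zero fiber lay below every library on HAMSAB, so the groups overlapped.

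On HAMSAB against zero fiber in WT mice, Slc16a1 averaged 28.6 ± 4.76 CPM (SD, n = 8) and 20.01 ± 3.23 CPM (n = 6). The edgeR log2 fold change was 0.56 ± 0.175 (SE; 95% interval 0.21 to 0.91), with an unadjusted p of 0.00263 and an adjusted p of 0.0882. It was therefore not called, in a comparison in which 2.19% of all tested genes were. The difference of mean log2(CPM + 0.5) was 0.50 in all libraries. It was 0.52 among libraries with title numbers below 2900 (5 on HAMSAB and 4 on zero fiber) and 0.50 among those of 2900 and above (3 and 2), a division that the labels do not call a batch. Red blood cell markers summed to 8.88 to 140.4 CPM on HAMSAB (4 of 5 genes with a read, median 34.6) and 65.6 to 684.3 CPM on zero fiber (5 of 5, median 121) in WT mice, and their part in the Slc16a1 values was not tested. Leaving out each of the 14 libraries in turn gave log2 fold changes of 0.50 to 0.63 for Slc16a1 and adjusted p of 0.0566 to 0.298.

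In AD mice Slc16a1 averaged 20.8 ± 3.99 CPM on HAMSAB and 21.4 ± 6.47 CPM on zero fiber (SD, n = 8 each), a log2 fold change of -0.11 ± 0.163 (SE), and -0.17 ± 0.168 without the 2 doubted libraries. The genotype difference of the diet effect, AD minus WT, was -0.67 ± 0.239 (edgeR adjusted p = 0.234) and was not called, while 1.08% of all genes were. Without the 2 doubted libraries it was -0.72 ± 0.241 (adjusted p = 0.170), and without 1 library it ran from -0.78 to -0.44. Directly compared on HAMSAB, AD mice had 20.8 ± 3.99 CPM and WT mice 28.6 ± 4.76 CPM of Slc16a1 (SD, n = 8 each), with a log2 fold change of -0.44 ± 0.153 (SE; adjusted p = 0.140). In this comparison 1.68% of all genes were called. The Slc16a1 difference was not alike in the title series. The difference of mean log2(CPM + 0.5) was -0.68 below 2900 (5 AD and 5 WT libraries) and -0.05 at 2900 and above (2 and 3 libraries). HAMSAB_AD_F replicate 4 is titled 000 and was placed in neither series. Against control, Slc16a1 on zero fiber had a log2 fold change of -0.36 ± 0.176 in WT mice (adjusted p = 0.657) and -0.14 ± 0.162 in AD mice (adjusted p = 0.806), neither of them called. The AD value was -0.07 ± 0.167 without the 2 doubted libraries and ran from -0.36 to -0.03 without 1 library. Among all tested genes, 0.00825% and 0.0578% were called in these 2 comparisons. On HAMSAB against control Slc16a1 had 0.20 ± 0.152 in WT mice (adjusted p = 0.614) and -0.248 ± 0.1535 in AD mice (0.442). Averaged over genotypes it was -0.02 ± 0.108 (0.944). None of these was called, where 0.281%, 0.0743% and 4.52% of all genes were.

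In AD mice the lowest, median and highest levels of Slc16a3 were 36.3, 43.04 and 46.6 CPM on HAMSAB, 20.96, 33.8 and 41.4 CPM on zero fiber, and 30.9, 38.5 and 47.8 CPM on control. In WT mice they were 21.1, 40.9 and 45.5 CPM on HAMSAB, 31.2, 41.96 and 50.7 CPM on zero fiber, and 27.8, 33.7 and 44.9 CPM on control. 6 of the 8 AD libraries on HAMSAB lay above every AD library on zero fiber, and the groups overlapped. The log2 fold change on HAMSAB against zero fiber was 0.33 ± 0.127 (SE) in AD mice (edgeR adjusted p = 0.322) and -0.06 ± 0.134 in WT mice, and 0.35 ± 0.135 in AD mice without the 2 doubted libraries (adjusted p = 0.345). The share of all tested genes called in AD mice was 0.239%. Within the title series the difference of mean log2(CPM + 0.5) in AD mice was 0.44 below 2900 (5 and 4 libraries) and 0.36 at 2900 and above (2 and 4 libraries). The 4 zero fiber libraries below 2900 include the 2 doubted libraries, and the difference there was not computed without them. The genotype difference of the HAMSAB effect against zero fiber, AD minus WT, was 0.39 ± 0.185 (adjusted p = 0.496), and that of the zero fiber effect against control was -0.44 ± 0.186 (adjusted p = 0.683). Without the 2 doubted libraries these were 0.41 ± 0.192 and -0.46 ± 0.193, and without 1 library they ran from 0.19 to 0.54 and from -0.59 to -0.24. No gene was called in the test of the genotype difference of the zero fiber effect against control (0%). In that test 748 genes had an unadjusted p under 0.05, and DESeq2 and limma voom called 0 as well.

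**Figure D3:**
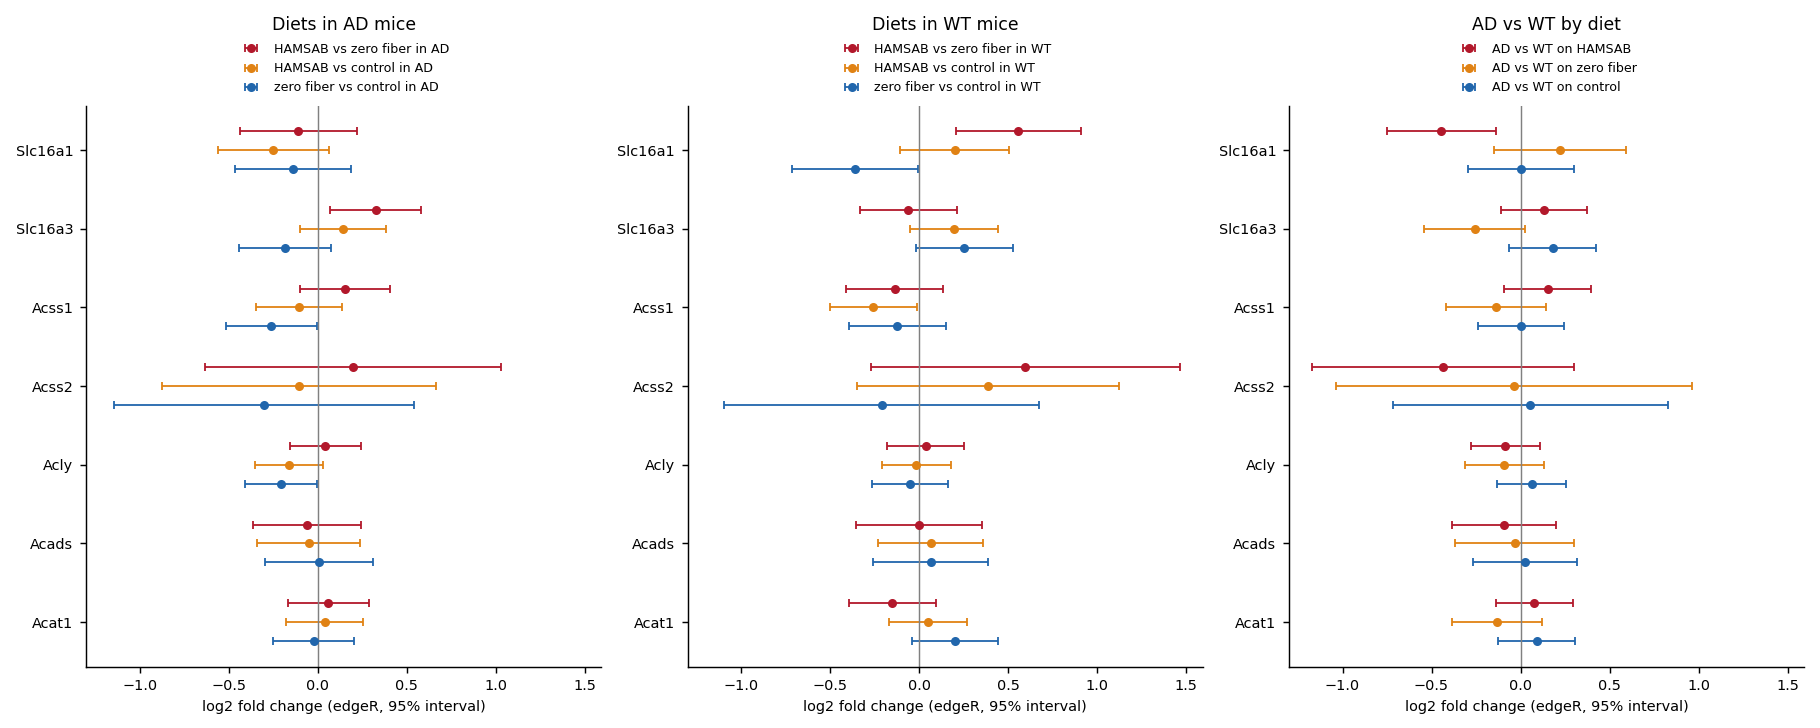
edgeR log2 fold change (horizontal axis) with its 95% interval for the 7 tested members (rows) in AD mice, in WT mice and for AD against WT on each diet. Slc16a1 on HAMSAB against zero fiber in WT mice is at 0.56 with an interval from 0.21 to 0.91, and the intervals of Acss2 are the widest.

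Acss1, the most abundant member, averaged 101.4 ± 18.7 CPM in AD mice on HAMSAB, 90.9 ± 11.3 CPM in AD mice on zero fiber and 110 ± 21.2 CPM in AD mice on control (SD, n = 8 each). In WT mice it averaged 90.9 ± 7.95 CPM on HAMSAB (n = 8), 100.9 ± 23.1 CPM on zero fiber (n = 6) and 110.1 ± 23.7 CPM on control (n = 8). The lowest and highest values over all libraries were 69.0 and 160 CPM, and the groups overlapped in each of the 9 pairs that differ in diet alone or genotype alone. Acss1 had negative log2 fold changes against control, at -0.26 ± 0.121 (SE) on HAMSAB in WT mice (edgeR adjusted p = 0.343) and -0.26 ± 0.126 on zero fiber in AD mice (adjusted p = 0.445; -0.31 ± 0.134 and 0.402 without the 2 doubted libraries). Averaged over genotypes, the log2 fold change on HAMSAB against control was -0.18 ± 0.0853 (adjusted p = 0.200). None of these was called, where 0.281%, 0.0578% and 4.52% of all genes were. Over the 13 comparisons of 2 groups or of group means, the 95% intervals of Acss1 lay within 0.701 and 1.33-fold.

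Acss2 was too low for a narrow interval. Its mean was 2.59 ± 1.55 CPM in AD mice on HAMSAB, 1.93 ± 1.35 CPM in AD mice on zero fiber and 3.10 ± 1.18 CPM in AD mice on control (SD, n = 8 each). In WT mice it was 3.82 ± 2.13 CPM on HAMSAB (n = 8), 2.71 ± 1.11 CPM on zero fiber (n = 6) and 2.77 ± 1.36 CPM on control (n = 8). The 95% intervals over the 13 comparisons ran from 0.445 to 2.76-fold, so differences of up to that size were not excluded. In AD mice Acss2 had a log2 fold change of 0.20 ± 0.413 (SE) on HAMSAB against zero fiber and -0.30 ± 0.418 on zero fiber against control, and 0.30 ± 0.445 and -0.39 ± 0.450 without the 2 doubted libraries, none called.

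Acly averaged 86.6 ± 14.03 CPM in AD mice on HAMSAB, 80.0 ± 15.6 CPM in AD mice on zero fiber and 97.0 ± 9.70 CPM in AD mice on control (SD, n = 8 each). In WT mice the means were 92.0 CPM on HAMSAB, 92.1 CPM on zero fiber and, on control, 92.9 CPM. On zero fiber against control in AD mice the log2 fold change of Acly was -0.21 ± 0.0996 (SE; edgeR adjusted p = 0.445), not called. That group holds the library of 52114 counts, in which 3 Acly reads give 46.4 CPM, and without the 2 doubted libraries the value was -0.19 ± 0.104 (adjusted p = 0.534). The 95% intervals for Acly over the 13 comparisons lay within 0.755 and 1.19-fold.

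Acads and Acat1, the mitochondrial enzymes of butyrate and ketone body use, had no p under 0.05 in the 13 comparisons. Acads averaged 41.8 CPM in AD mice on HAMSAB, 38.1 CPM in AD mice on zero fiber and 43.1 CPM in AD mice on control, and 46.1, 45.7 and 42.7 CPM in WT mice on the same diets. Its log2 fold changes over the 13 comparisons ran from -0.09 to 0.07, the smallest p was 0.531, and the 95% intervals lay within 0.766 and 1.31-fold. In WT mice on HAMSAB the median was 38.1 CPM and the highest library, HAMSAB_WT_M replicate 4, stood at 100.4 CPM. Acat1 averaged 59.0 CPM in AD mice on HAMSAB, 51.5 CPM in AD mice on zero fiber and 57.3 CPM in AD mice on control. In WT mice it averaged 55.6 CPM on HAMSAB, 61.1 CPM on zero fiber and, on control, 53.0 CPM. The means of AD mice on zero fiber include the library of 52114 counts, which held 0 reads of Acads and 1 of Acat1. The log2 fold changes of Acat1 ran from -0.15 to 0.20, the smallest p was 0.101, and the 95% intervals lay within 0.763 and 1.36-fold. Without the 2 doubted libraries, HAMSAB against zero fiber in AD mice gave -0.15 ± 0.143 (SE) for Acads, against -0.06 ± 0.151 with them, and 0.07 ± 0.115 for Acat1, against 0.06 ± 0.113 with them. Zero fiber against control gave 0.10 ± 0.143 without and 0.01 ± 0.151 with them for Acads, and -0.02 either way for Acat1. A p above the threshold does not show equal levels, and these intervals give an approximate range for a difference.

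The members were also read together against all genes. On HAMSAB against zero fiber 5 of the 7 were higher in AD mice, with a median log2 fold change of 0.06 beside 0.00 over all genes, and 4 of 7 in WT mice, with a median of 0.00. On HAMSAB against control 2 of 7 were higher in AD mice (median -0.10), where 0.0743% of all genes were called, and 5 of 7 in WT mice (median 0.07). On zero fiber against control 1 of 7 was higher in AD mice (median -0.18 beside -0.01 over all genes) and 3 of 7 in WT mice (median -0.05). AD against WT gave 3 of 7 higher on HAMSAB (median -0.08), 1 of 7 on zero fiber (median -0.09) and 7 of 7 on control (median 0.06). With no filter on low counts the last was 5 of 7, since Slc16a1 and Acss1 lay at -0.01 in place of 0.00, and zero fiber against control in AD mice was 0 of 7. Without the 2 doubted libraries AD against WT on zero fiber was 2 of 7. Of all tested genes 0.00825% were called for AD against WT on zero fiber and 0% on control, where 655 genes had an unadjusted p under 0.05 and DESeq2 and limma voom called 0.

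Averaged over genotypes, 1.02% of all genes were called on HAMSAB against zero fiber, 4.52% on HAMSAB against control and 0.363% on zero fiber against control, and none of the 7 members among them. On HAMSAB against zero fiber, 1 of 3 tested neutrophil markers, 1 of 7 perivascular macrophage and 4 of 4 red blood cell markers were called lower. On zero fiber against control, 3 of 3 neutrophil markers were higher with 0 called, and 4 of 4 red blood cell and 1 of 4 neuron markers were called higher. The part of these markers in the member levels was not tested. For AD against WT averaged over diets 0.0165% of all genes and none of the members were called. The genotype difference of the HAMSAB effect against control called 0% of all genes, with 670 at an unadjusted p under 0.05 and 0 by DESeq2 or limma voom. In the test of any difference among the 6 groups 4.36% of all genes were called. The lowest member there was Slc16a1 (adjusted p = 0.187), followed by Slc16a3 (adjusted p = 0.306). The comparisons share libraries, so these counts are not independent of each other.

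Around the members, 7 lists of related genes held 67 genes, 43 of them tested. Slc16a6 and Cpt1a were called, both lower on HAMSAB than on control when averaged over genotypes. That comparison called 548 of the 12121 tested genes in either direction (4.52%), and 268 of them lower (2.21%). The 2 calls among the 43 tested genes of the lists are near the 4.52% over all genes. Slc16a6, a monocarboxylate transporter known from zebrafish to carry ketone bodies out of hepatocytes, averaged 116 ± 13.6 CPM in AD mice on HAMSAB and 154 ± 20.7 CPM in AD mice on control (SD, n = 8 each). In WT mice Slc16a6 averaged 135 ± 18.4 CPM on HAMSAB and 144 ± 11.9 CPM on control. Its log2 fold change was -0.25 ± 0.0670 (SE; edgeR adjusted p = 0.0235). The difference of mean log2(CPM + 0.5) for Slc16a6 was -0.34 below title number 2900 (10 and 5 libraries) and -0.10 at 2900 and above (5 and 11 libraries). With a term for the title series the edgeR adjusted p of Slc16a6 was 0.0501, at a log2 fold change of -0.25. That term gives HAMSAB_AD_F replicate 4, which is in neither series, its own coefficient, so the fit in effect leaves this library out. Without HAMSAB_AD_F replicate 1 or HAMSAB_WT_M replicate 2 the adjusted p was 0.0530 and 0.0550, at -0.22 and -0.23. Slc16a6 was no longer called in any of these fits. Zero fiber against control, averaged over genotypes, gave -0.17 ± 0.0724 for Slc16a6 (edgeR adjusted p = 0.301). HAMSAB against zero fiber gave -0.08 ± 0.0724 (adjusted p = 0.674). Neither was called, and both values keep the 2 doubted libraries.

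Cpt1a, which makes the acylcarnitines that carry long-chain fatty acids into mitochondria, averaged 40.4 ± 5.596 CPM on HAMSAB and 46.1 ± 8.16 CPM on control in AD mice (SD, n = 8 each). In WT mice Cpt1a averaged 44.2 ± 6.89 CPM on HAMSAB and 54.7 ± 7.97 CPM on control. Its log2 fold change on HAMSAB against control was -0.25 ± 0.0732 (SE; edgeR adjusted p = 0.0390), and Cpt1a was also called in the test of any difference among the 6 groups (adjusted p = 0.0391). That call held in 28 of 46 fits without 1 library, with adjusted p up to 0.103 without control_WT_F replicate 2. It was lost without HAMSAB_AD_F replicate 4 (0.0617), with no filter on low counts (0.126) and with the title series term (0.130). Within the title series the differences of mean log2(CPM + 0.5) on HAMSAB against control were -0.17 below 2900 and -0.22 at 2900 and above. Cpt1a was lower on zero fiber than on control as well, at -0.27 ± 0.0799 averaged over genotypes (edgeR adjusted p = 0.101). This was -0.44 ± 0.117 in WT mice (0.202) and -0.11 ± 0.109 in AD mice (0.767). HAMSAB against zero fiber, averaged over genotypes, gave 0.02 ± 0.0805 (0.954). None of these 4 was called, and the 2 doubted libraries were kept. The call of Cpt1a on HAMSAB against control held in 14 of 32 fits without 1 library, with adjusted p up to 0.0755, reached without control_AD_M replicate 1. It ended with DESeq2 (0.0507), with no filter on low counts (0.114) and with the title series term (0.0848), at log2 fold changes of -0.24, -0.26 and -0.23. Leaving out HAMSAB_AD_F replicate 4 alone, with no series term, also ended it (0.0603). Without 1 library the fold change of Cpt1a lay between -0.28 and -0.23. In the same comparison 4 of 4 tested neuron markers were higher on HAMSAB and 1 of them was called (median log2 fold change 0.56). The 6 neuron markers summed to 8.79 to 34.99 CPM on HAMSAB and 7.36 to 16.5 CPM on control in AD mice, and to 11.9 to 34.6 CPM on HAMSAB and 7.68 to 18.7 CPM on control in WT mice. Of the 7 perivascular macrophage markers, 0 were higher on HAMSAB in AD mice (median -1.279) and 6 in WT mice (median 0.86), none called. Their sums were 18.2 to 44.5 CPM on HAMSAB and 25.1 to 161 CPM on control in AD mice, and 27.9 to 75.5 CPM on HAMSAB and 20.3 to 59.3 CPM on control in WT mice. The part of these markers in the Slc16a6 and Cpt1a values was not tested.

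No other gene of the 7 lists was called in any of the 17 comparisons. In the test of any difference among the 6 groups, the smallest p-values in the lists without a call belonged to the following genes, none called by edgeR over all genes. They were Elovl6, a fatty acid elongase, and Mlycd, which degrades malonyl-CoA, in the citrate and cytosolic acetyl-CoA list (adjusted p = 0.238 and 0.278). Acat2 and Oxct1 came first in the ketone body list (0.446 and 0.525), the mutase Mut and the epimerase Mcee of methylmalonyl-CoA in propionate catabolism (0.626 and 0.643), and Gpr84 and Ffar1 among the receptors (0.716 and 0.949). Acsf3, which activates malonate, was the tested gene of the synthetase list (0.448). On HAMSAB against control averaged over genotypes, 10 of 16 beta-oxidation genes, 3 of 6 other transporters and partners and 2 of 8 citrate list genes were higher. The medians were 0.02, -0.01 and -0.10, beside 0.00 over all genes.

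**Figure D4:**
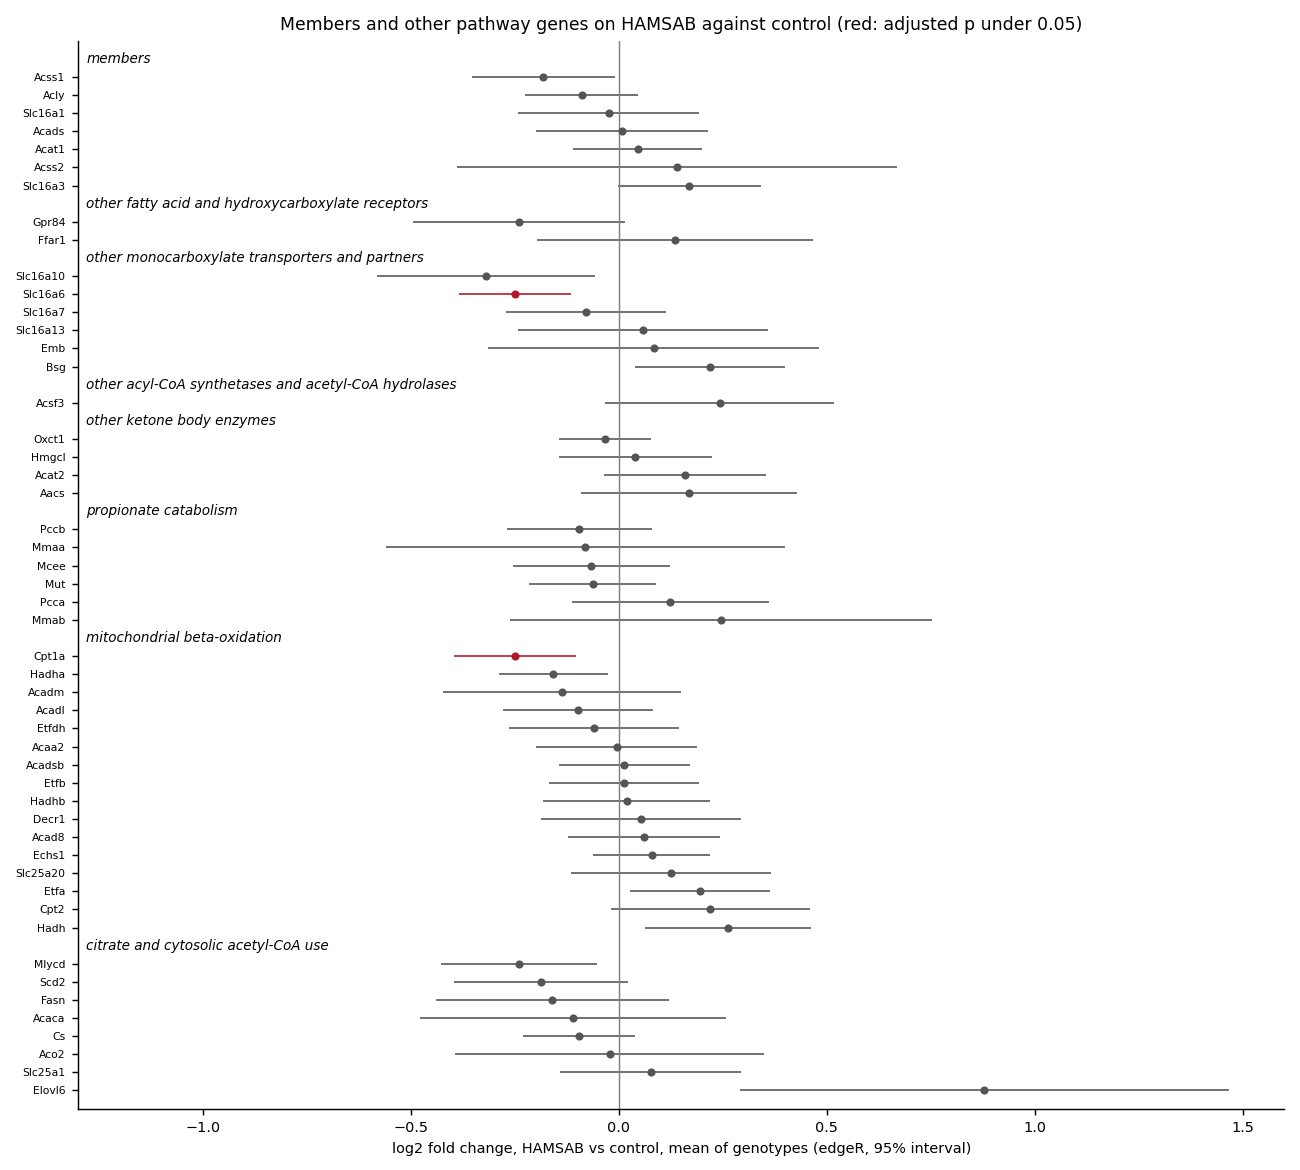
edgeR log2 fold change on HAMSAB against control, averaged over genotypes, with 95% intervals (horizontal axis) for the 7 tested members and the 43 tested genes of the related lists (rows). Red marks genes at an adjusted p under 0.05, which are Slc16a6 and Cpt1a at -0.25 each, and the members lie between -0.18 and 0.17.

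Within libraries the members did not follow each other closely. Over the 45 libraries with at least 200000 counts, Pearson's r of log2 CPM between members ran from -0.125 to 0.444, highest for Acss2 with Acat1 and next for Slc16a1 with Acly (0.428). The points share library, depth and scaling, and r is given as a description. Among 9081 genes the one most like Slc16a1 was Pdia4, a protein disulfide isomerase of the endoplasmic reticulum (0.726), followed by Alyref2 (0.648). Acly was most like Cs, the citrate synthase whose product it cleaves (0.668), and Acads was most like Csf1r, the receptor for CSF1 and IL-34 on microglia (0.631). Acss1 was most like Pik3cg (0.685), Slc16a3 like Poll (0.653), Acat1 like Tmem126a (0.622) and Acss2 like Foxred1 (0.598). By labelled sex, which counts the library with the male pattern as female, Slc16a1 averaged 24.2 ± 5.44 CPM in 24 female and 22.9 ± 6.50 CPM in 22 male libraries (SD), and Acss2 3.12 ± 1.56 CPM and 2.5 ± 1.46 CPM. The sexes were not tested against each other here.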

How the data were processed

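RNA-seq reads of mouse microglia in 46 libraries were counted per gene by the authors, and the deposited table holds raw counts of 54134 genes, not normalized. Per the labels' protocols, RNA was extracted with an RNeasy Micro kit on a QIAcube and libraries followed standard Illumina protocols. Per the submitters' processing notes, reads were processed with STAR 2.5.2b and featureCounts 1.5.2 on GRCm38 (mm10). How the counting treated strand and reads with several matches is not given in the sources used here. No library duplicated another (highest Pearson r between libraries 0.981).

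Libraries were grouped by the diet, genotype and sex in the labels, and their replicate numbers follow accession order and pair nothing. The deposited counts were fitted with edgeR 4.0.16 in R 4.3.3 (filterByExpr, TMM factors of 0.918 to 1.25, glmQLFit and glmQLFTest) as 12 group means over all 46 libraries. Sexes were weighted equally, and Benjamini-Hochberg adjustment ran over 12121 genes. Where a gene's variance falls below the Poisson limit, edgeR gives the larger of the F test and Poisson p-values. The 95% intervals are the log2 fold change ± the t quantile times the SE. As the SE was derived from the F statistic, an interval need not match a p-value where edgeR gave the Poisson one. For Acat1 on HAMSAB against control in WT mice, 0.05 ± 0.109 went with an unadjusted edgeR p of 0.936. Alternatives were DESeq2 size factors, no low-count filter, DESeq2 1.42.0, limma 3.58.1 voom with quality weights, a title series term, only the libraries compared, and leaving out the 2 doubted libraries or each library in turn. The procedure was tested on simulated data.

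The members and the gene lists were chosen with earlier results of these data known. Named from each list were up to 4 called genes per comparison. For a list with no call, the 2 genes of smallest p in the test over the 6 groups were named. For each member, up to 3 genes with the highest Pearson r were eligible, among genes whose log2 CPM averaged at least 3. Genes named from the lists to describe detection were chosen after their values were seen. Coordinates and exonic lengths come from GENCODE (release M21, GRCm38), matched by symbol, and promoter windows from RefSeq (GRCm38.p6), matched for 8 of the 10 members, with no entry for Hcar2 and Acat1. Transgene expression was not analysed here. Some items are not reported here.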

Additional observations from a re-analysis of the deposited data

Results flagged for a closer look

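Among 48 sets of 1 member in 1 of the 6 diet-by-genotype groups, 4 held a library that stood apart from the others of its group by Dixon's gap criterion at 95%, which chance meets in about 1 of 20 sets. Acads was at 100.4 CPM in HAMSAB_WT_M replicate 4 (131 reads), where the next highest library of WT mice on HAMSAB was at 42.8 CPM. The gap was 0.887 of the group's range, against a critical value of 0.526. Without that library the log2 fold change of Acads in WT mice was -0.20 on HAMSAB against zero fiber and -0.14 on HAMSAB against control, not called in either fit.

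The other 3 came from zero_fiber_AD_M replicate 2, the library of 52114 counts, and each was the lowest of AD mice on zero fiber. Acads was at 0 CPM (0 reads, next lowest 28.9 CPM), Acat1 at 15.4 CPM (1 read, next lowest 52.0 CPM) and Acly at 46.4 CPM (3 reads, next lowest 74.2 CPM). In that library 3 counts equal 46.4 CPM.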

How the results depend on the processing

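None of the 7 tested members was called in any of the 17 comparisons under any alternative run, and 9 members were detected with at least 1 read and 8 with at least 3. All 819 values of single members under the other settings moved by less than 1 SE of the fold change or, for the test over the 6 groups, stayed uncalled. Without 1 library 2877 values did so and 21 moved by more than 1 SE, none of them called. The lowest adjusted p of any member without 1 library was 0.0566, for Slc16a1 on HAMSAB against zero fiber in WT mice without HAMSAB_WT_M replicate 2. The fit on only the libraries compared could not be made for AD against WT averaged over diets or for the test over the 6 groups, which use all libraries. The checks of Slc16a6 and Cpt1a, and of Hcar2 without the 2 doubted libraries, were chosen after seeing the data. No paired analysis was possible because the labels give no replicate numbers.

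The number of all genes called moved far more than the members did. Without 1 library it ran from 1 to 346 on HAMSAB against zero fiber in WT mice (265 with all), from 1 to 104 on HAMSAB against control in AD mice (9), from 93 to 281 for AD against WT on HAMSAB (204) and from 297 to 914 on HAMSAB against control averaged over genotypes (548). With no low-count filter, 204 genes in place of 29 were called on HAMSAB against zero fiber in AD mice. Depth limits the receptors and Acss2 most, with 0 reads of Ffar2, 1 of Ffar3, 201 of Hcar2 and 343 of Acss2 in all.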
